A study of Homo sapiens with 10 samples.

Results

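Most short stretches of chromatin at which SMARCB1 was found after its re-expression carried no called BRD9. SMARCB1 regions were made by joining overlapping peaks, sharing 1 bp or more, of the 2 SMARCB1 peak lists, and keeping those with a peak of both replicates. Of 87773 such regions, 33190 were narrow, with a joined width under 1000 bp. A total of 27718 narrow regions overlapped no peak in any of 6 BRD9 lists. They made up 83.5% of the narrow regions (95% Wilson interval 83.1 to 83.9%) and 31.6% of all SMARCB1 regions. Among the 54583 regions of 1000 bp or more, 27692 (50.7%) had no BRD9 peak. Membership rests on measured peaks, so these shares describe the choice and are not a test.

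All samples were G401 cells, an established rhabdoid tumour line that the labels give as SMARCB1(-/-), in which doxycycline induced either GFP or SMARCB1. Chromatin was profiled by CUT&RUN, in which an antibody brings a nuclease to its target so that nearby DNA is cut out and sequenced. The 8 lists used were 2 for SMARCB1 in SMARCB1-induced cells, 3 for BRD9 in GFP-induced cells and 3 for BRD9 in SMARCB1-induced cells. The SMARCB1 antibody was a rabbit monoclonal and the BRD9 antibody a rabbit polyclonal. A single cell line stands behind every value, and the induced SMARCB1 is a transgene product, not the endogenous protein. The labels do not say whether replicates were separate cultures, so p-values measure only the spread between these samples.

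SMARCB1 is a core subunit of the canonical BAF and PBAF forms of the SWI/SNF remodeller, which move nucleosomes and open enhancers and promoters. BRD9 is a bromodomain subunit of the non-canonical form, which assembles without SMARCB1. Rhabdoid tumours are defined by loss of SMARCB1 and are known to depend on BRD9. SMARCB1 regions without BRD9 are therefore places where the restored subunit was called and the non-canonical form was not.

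Sequencing depth differed between the proteins. The SMARCB1 libraries held 64.2 and 59.7 M reads, and the BRD9 libraries between 10.1 and 13.9 M. Density is given as RPKM, the reads of a peak divided by its length in kilobases and by the size of the library. The lowest density of any SMARCB1 peak under 1000 bp was 0.958 RPKM in both lists, against 1.94 to 2.30 RPKM in the BRD9 lists. SMARCB1 density at the members was below 1.49 RPKM in replicate 1 and below 1.51 RPKM in replicate 2 for 3 in 4 of them. Those values lie under the lowest BRD9 density called, although densities of different antibodies are not on a shared scale. A region without a BRD9 call at this depth is therefore not shown to lack BRD9.

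The members were 156 to 997 bp wide, with a median of 675 bp and quartiles of 550 and 825 bp. Together they covered 18.9 Mb, 10.8% of the length of all SMARCB1 regions. In 27415 members (98.9%) each replicate contributed a single peak. A median member held 42 reads in replicate 1 and 47 in replicate 2. The control library of the SMARCB1 lists, a GFP negative control per the names of the deposited lists, had a median of 12 and 13 reads there.

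Most members lay close to the lowest density that was called. Their median was 1.38 RPKM in replicate 1 and 1.39 RPKM in replicate 2, with quartiles of 1.29 and 1.49 RPKM and of 1.29 and 1.51 RPKM. In replicate 1, 62.3% lay within 1.5 times the lowest peak density of the list, and in replicate 2, 60.4%. Among regions without BRD9 this was not particular to the members. In wide regions (1000 bp or more) without BRD9 these shares were 60.2% and 52.4%, and the median densities were 1.38 and 1.42 RPKM. Where BRD9 was called the shares were lower, 44.7% and 39.4% in narrow regions and 22.3% and 14.6% in wide ones. Densities over 2 RPKM were found in 206 members (0.743%) in replicate 1 and 336 (1.21%) in replicate 2. The highest values of members were 4.14 and 3.93 RPKM. Of narrow regions with BRD9, 4.88% in replicate 1 and 8.26% in replicate 2 were over 2 RPKM.

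Membership asks for overlapping peaks of both replicates, so the closeness of their positions is partly set by the rule. The peaks of both replicates shared a median of 61.5% of their joint length, and their points of highest signal were a median of 109 bp apart. The median absolute log2 difference between their densities was 0.13. Across members the densities of the replicates had a Pearson correlation of 0.39 and a Spearman correlation of 0.27, as a description over 27718 regions of the same libraries with a narrow range of values. In narrow regions with BRD9 these correlations were 0.69 and 0.54 over 5472 regions.

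The share of narrow regions without BRD9 was lower at larger widths. It was 91.2% (95% Wilson interval 89.6 to 92.6%) from 300 to under 400 bp, 86.0% (85.1 to 86.8%) from 600 to under 700 bp and 76.8% (75.6 to 77.9%) from 900 to under 1000 bp. Below 300 bp there were 68 regions, of which 57 had no BRD9. Members were accordingly narrower than narrow regions with BRD9, with medians of 675 and 775 bp. A wider region has more room for an overlap, and the part of this in the trend was not tested.

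**Figure D1:**
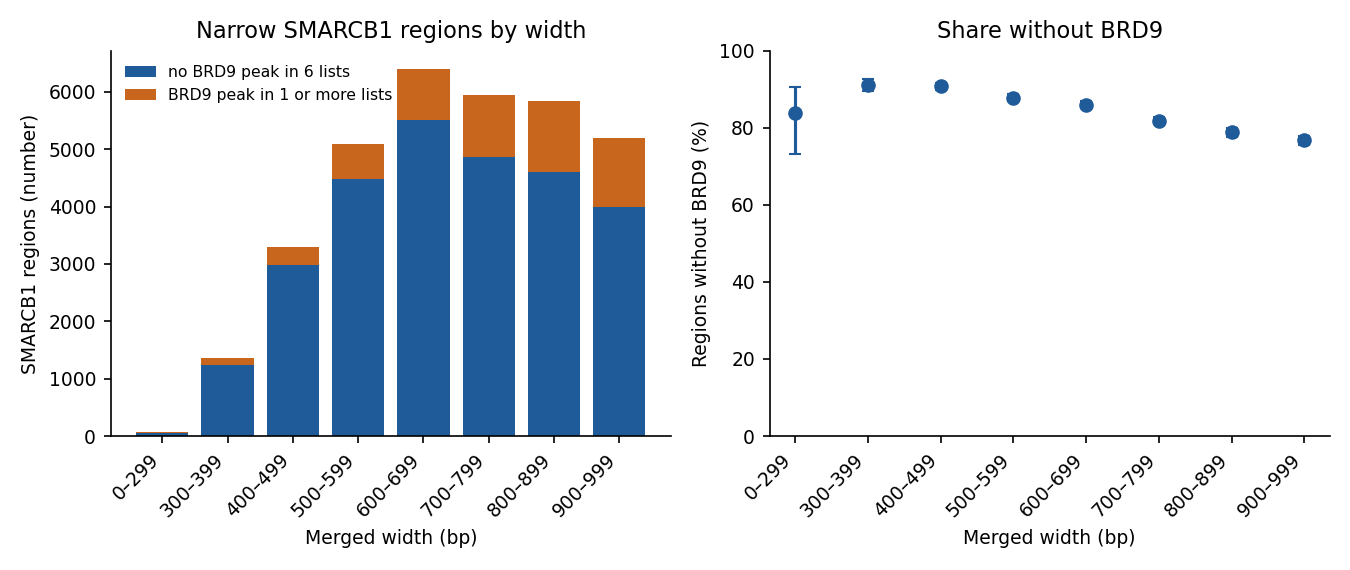
Number of narrow SMARCB1 regions in each band of joined width in bp (left, stacked by the presence of a BRD9 peak) and the percentage without any BRD9 peak (right, points with 95% Wilson intervals). The percentage runs from 91.2% in the band from 300 bp down to 76.8% in the band from 900 bp, and the lowest band holds 68 regions.

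Members were slightly less dense in SMARCB1 than narrow regions that did carry BRD9. The median was 1.38 against 1.46 RPKM in replicate 1 and 1.39 against 1.498 RPKM in replicate 2. The means over replicates were 1.39 ± 0.0056 and 1.48 ± 0.029 RPKM (SD, n = 2 each), a log2 ratio of -0.089 ± 0.023 (SD, n = 2). The members had the lower median in each of the 2 lists. Both kinds of region were measured in the same 2 libraries, so no test was made. Within single chromosomes the direction was the same on 23 of 23 chromosomes, 1 to 22 and X, in both replicates. It also held in each width band of 100 bp from 300 bp upward in both replicates, with 1.35 against 1.47 RPKM in the band from 900 bp in replicate 1.

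The relation to BRD9 was concentrated at the dense end. Narrow regions were ordered by mean SMARCB1 density and divided into 10 equal bins. The lowest bin lacked BRD9 in 90.1% of cases (95% Wilson interval 89.0 to 91.0%), and bin 5 in 88.7% (87.5 to 89.7%). In the highest bin, from 1.65 RPKM upward, the share was 59.0% (57.3 to 60.7%). At fixed width, among regions from 900 to under 1000 bp in 5 bins, the share ran from 90.4% in the lowest bin by density to 53.7% in the highest. Among regions from 700 to under 900 bp it ran from 88.7% to 62.8%. The dense end of the control library had a lower share too. Ordered by mean control density, narrow regions lacked BRD9 in 86.9% of cases in the lowest of 10 bins and 67.1% in the highest. From 900 to under 1000 bp the share was 80.1% in the lowest of 5 control bins and 62.9% in the highest. No test was made over regions, which are not replicates.

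Median SMARCB1 density was also higher where more BRD9 lists held a peak. It was 1.38 and 1.39 RPKM in the 2 replicates for the members, with 0 lists. For the 3172 narrow regions called in 1 list it was 1.44 and 1.48 RPKM, and for the 207 regions called in all 6 it was 1.61 and 1.69 RPKM, close to the 1.64 and 1.67 RPKM of the 168 called in 5. Quartiles overlapped between neighbouring numbers of lists.

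The control library differed in the same direction. Its median density was 0.493 and 0.474 RPKM at the members and 0.558 and 0.538 RPKM at narrow regions with BRD9, over the intervals of replicates 1 and 2. At regions called in all 6 BRD9 lists it was 0.943 and 0.911 RPKM. As a result, the sample-to-control ratio was higher at the members, 2.80 and 2.96, than at narrow regions with BRD9, 2.56 and 2.79. The log2 ratio of these medians was 0.10 ± 0.033 (SD, n = 2), with no test since both lists share the control library, and it turned to -0.039 when regions up to 2000 bp were taken as narrow. These control densities are those of the SMARCB1 lists, with a control library of 49.6 M reads. The BRD9 lists had another control, of 23.1 M reads, which is not named in the sources used here. The part of control reads in the BRD9 calls was not tested.

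The higher control density was found at regions with BRD9 in GFP-induced cells. At the 1623 narrow regions with BRD9 in GFP-induced lists alone the control medians were 0.638 and 0.605 RPKM, and at the 1189 with BRD9 in both conditions they were 0.764 and 0.728 RPKM. Chromosome 19 held 21.2% of these 1189 regions and 2.23% of the members. The 2660 regions with BRD9 in SMARCB1-induced lists alone had 0.466 and 0.452 RPKM, below the members. Their SMARCB1 density, 1.42 and 1.48 RPKM, was nonetheless above that of the members. The member values of 1.38 and 1.39 RPKM were thus the lowest of the 4 sets in both replicates, whereas their control values were not.

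**Figure D2:**
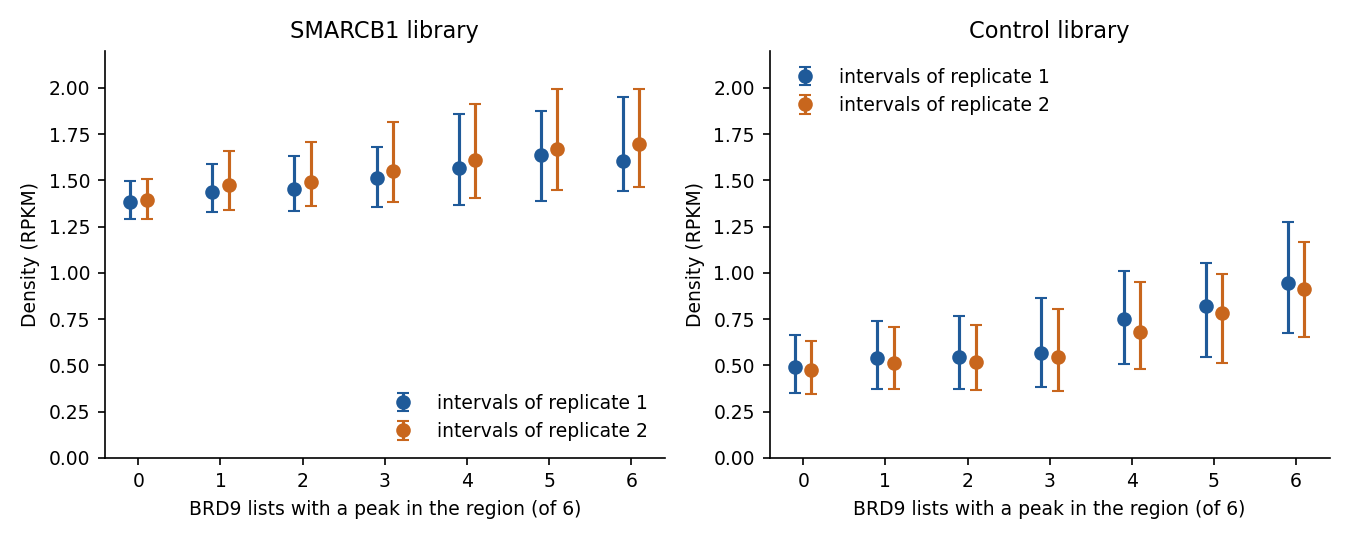
Density in RPKM of the SMARCB1 libraries (left) and of their shared control library (right) at narrow SMARCB1 regions, by the number of BRD9 lists with a peak in the region. Points are medians and bars the quartiles over regions, for the intervals of each SMARCB1 replicate. The members, at 0 lists, have the lowest medians in both panels, and the control median reaches 0.943 and 0.911 RPKM at 6 lists.

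Many members had another SMARCB1 region close by, though less often than wide regions did. The median gap to the next SMARCB1 region was 3175 bp, with quartiles of 750 and 11400 bp. A total of 8145 members (29.4%) had one within 1 kb and 16384 (59.1%) within 5 kb, while 872 (3.15%) were over 100000 bp from any other. Narrow regions with BRD9 had a median gap of 3780.5 bp. Wide regions had shorter ones, 1267.5 bp without BRD9 and 1296 bp with BRD9. A next region within 1 kb was found for 26.9% of narrow regions with BRD9. For wide regions the shares were 45.6% without BRD9 and 45.3% with BRD9. Counting peaks of single lists, the next peak was a median of 2375 bp from members and 2929.5 bp from narrow regions with BRD9 in replicate 1. In replicate 2 the values were 1450 and 1725 bp.

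The direction of the difference in gaps between regions depended on how absence of BRD9 was defined. The log2 ratio of median gaps, members over narrow regions with BRD9, was -0.25. It was 0.10 when absence was asked only in GFP-induced lists and -0.45 when it was asked only in SMARCB1-induced lists. It turned to 0.86 when members were to have no BRD9 peak within 1 kb. Narrow regions with BRD9 in GFP-induced lists alone had a median gap of 2750 bp, shorter than that of the members. Those with BRD9 in SMARCB1-induced lists alone had 4425 bp. With SMARCB1 replicate 2 left out, which takes the regions of replicate 1 alone, the log2 ratio was -0.010, and with replicate 1 left out it was -0.066. The difference was thus near 0 without the demand that both replicates hold a region.

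The neighbours of members were of each kind in shares near those of all SMARCB1 regions. The next SMARCB1 region was another member for 9881 (35.6%), while members are 31.6% of all regions. It was a wide region without BRD9 for 8853 (31.9%), against 31.5% of all regions, and a wide region with BRD9 for 7439 (26.8%), against 30.6%. It was a narrow region with BRD9 for 1545 (5.57%), against 6.23%. For narrow regions with BRD9 the next one was a wide region with BRD9 in 38.4% and another narrow region with BRD9 in 13.8%. For members these shares were 26.8% and 5.57%, and no test was made over regions.

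Although no BRD9 peak touched the inside of a member, many lay near. The nearest peak of any of the 6 lists was a median of 10599 bp away, with quartiles of 3572.5 and 30522.8 bp. Such a peak lay within 1 kb of 2052 members (7.40%), within 5 kb of 8842 (31.9%) and within 100000 bp of 25459 (91.9%). The remaining 2259 members were farther from every BRD9 peak. For wide regions without BRD9 the median was 7337 bp.

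Members lay nearer to BRD9 in the lists of SMARCB1-induced cells than in those of GFP-induced cells, in a design too small for its test to pass 0.05. In GFP-induced cells the median distance from a member to the nearest BRD9 peak was 78050 bp in replicate 1, 52596 bp in replicate 2 and 65852.5 bp in replicate 3. In SMARCB1-induced cells it was 25946, 26052.5 and 24667.5 bp. The 3 lists of SMARCB1-induced cells all lay below the 3 lists of GFP-induced cells and close together. The log2 difference was -1.34, a 2.53-fold shorter distance (two-sided exact permutation test of 3 lists against 3, p = 0.1, the smallest it can give, adjusted p = 0.133 over 4 tests). Over all 33190 narrow regions, with or without BRD9, medians were 67471, 43661.5 and 56854 bp and then 21243.5, 21767 and 20475 bp.

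The same was seen as shares. A BRD9 peak lay within 5 kb of 7.20%, 9.51% and 8.65% of members in the lists of GFP-induced cells, and of 16.8%, 16.5% and 17.2% in those of SMARCB1-induced cells. The mean was 8.45 ± 1.17% with GFP and 16.8 ± 0.351% with SMARCB1 (SD, n = 3 each), 8.39 points apart and without overlap of the groups (exact permutation test, p = 0.1, adjusted p = 0.133). Within 1 kb the means were 1.58 ± 0.345% and 2.70 ± 0.0866%, and within 20 kb 25.5 ± 2.97% and 44.2 ± 0.749% (SD, n = 3 each). The share of narrow regions that held a BRD9 peak themselves was 3.12%, 5.99% and 3.75% in GFP-induced cells and 6.45%, 5.50% and 5.83% in SMARCB1-induced cells, groups that overlap (difference 1.64 points, exact permutation test, p = 0.3, adjusted p = 0.3). With GFP replicate 2 left out the difference was 2.49 points and the groups did not overlap. It was 6.27 points with a width limit of 2000 bp, 2.61 points when a BRD9 peak within 1 kb counted as held, and -0.643 points with a limit of 500 bp.

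Wide regions without BRD9 had a larger difference in points between conditions. Their share with a BRD9 peak within 5 kb went from 10.5 ± 1.30% to 21.9 ± 0.636% (SD, n = 3 each). The difference in members minus that in wide regions was -2.99 points, and the 3 lists of each condition did not overlap in the difference between both kinds of region (exact permutation test over lists, p = 0.1, adjusted p = 0.133). Within 1 kb this difference was -0.19 points and the lists overlapped (p = 0.3, exact permutation test). As log2 ratios the differences between conditions were 0.99 for members and 1.06 for wide regions.

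**Figure D3:**
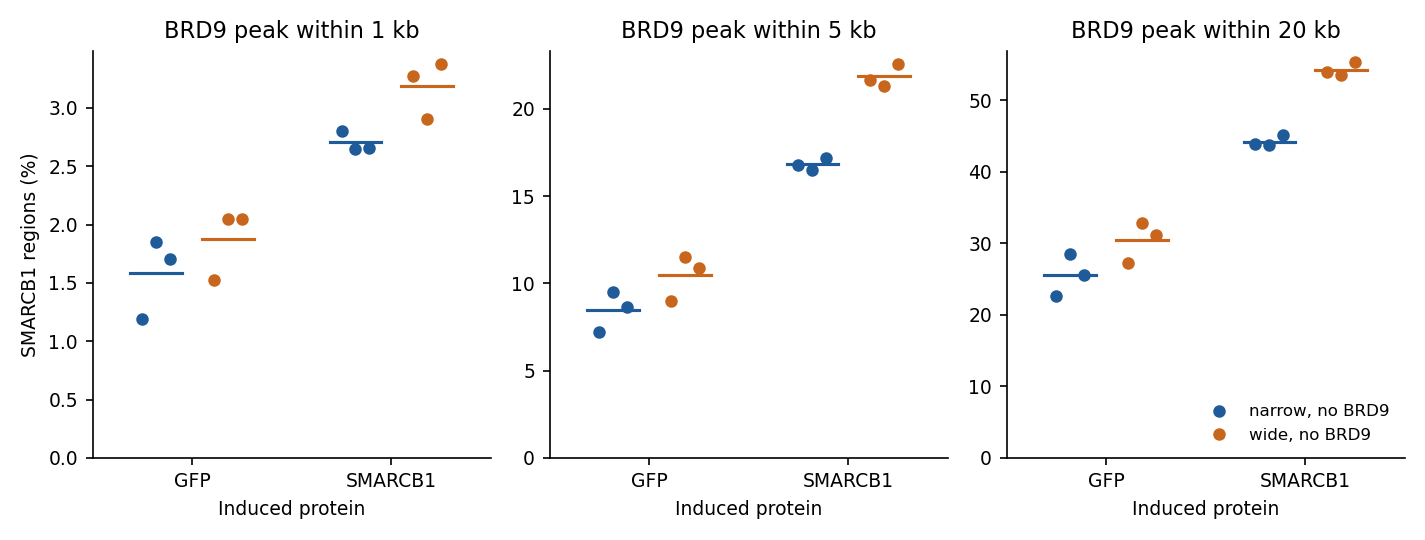
Percentage of SMARCB1 regions without BRD9 that had a BRD9 peak within 1, 5 and 20 kb, for narrow regions (the members) and wide regions. Each point is a BRD9 list, 3 per induced protein, and bars are means. Within 5 kb the member lists of SMARCB1-induced cells sit between 16.5% and 17.2%, above those of GFP-induced cells, which sit between 7.20% and 9.51%.

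Region by region, a nearby BRD9 peak counted as gained if it lay within 5 kb in all 3 BRD9 lists made with SMARCB1 and in 0 of the 3 made with GFP, and as lost in the opposite case. Among members 1466 (5.29%) gained one, against a background of 12.1% over all 87773 SMARCB1 regions. A nearby peak was lost at 126 members (0.455%), against a background of 0.727%. The background includes regions that themselves overlap BRD9. Wide regions without BRD9 gained one in 1985 cases (7.17%) and lost one in 155 (0.560%). Gains near members outnumbered losses. Both member shares were below their backgrounds, which is partly set by the rule. An overlapping peak counts as nearby in the background, where wide regions with BRD9 gained one in 24.7% of cases, whereas members overlap none. How frequent gains are near members cannot be judged from that comparison.

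The nearer BRD9 peaks mostly sat on other SMARCB1 regions, which were themselves called in SMARCB1-induced cells. Among members with a BRD9 peak within 5 kb, the nearest one overlapped a SMARCB1 region in 56.2%, 72.8% and 60.7% of cases in GFP-induced cells and in 90.5%, 91.9% and 89.8% in SMARCB1-induced cells. In the latter the carrier was mostly a wide region, in 83.3%, 85.5% and 83.8% of cases. Narrow regions with BRD9 carried it in 7.34%, 6.62% and 6.12%.

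BRD9 peaks on and off SMARCB1 regions differed between conditions in opposite directions relative to the members. The members and the other SMARCB1 regions were all called in SMARCB1-induced cells, so on and off were set by that condition alone. Regions needed a peak of both replicates, so an off-region BRD9 peak can overlap a SMARCB1 peak of a single replicate. The median distance from a member to a BRD9 peak on a SMARCB1 region was 162304, 80354 and 125312 bp in GFP-induced cells and 29550, 29567 and 28525 bp in SMARCB1-induced cells, 4.03-fold shorter. The distance to a BRD9 peak off SMARCB1 regions was 135675, 150360 and 126633 bp and then 237330, 260376 and 199177 bp, 1.68-fold longer. Members with an on-region peak within 5 kb went from 5.73 ± 1.44% to 15.5 ± 0.221%, and those with an off-region peak from 3.33 ± 0.472% to 1.79 ± 0.267% (SD, n = 3 each). In all 4 measures the groups did not overlap (exact permutation tests, p = 0.1 each, adjusted p = 0.1 over these 4, which were chosen after the values were seen). The numbers of peaks differed in the same directions, from 11821 ± 2696 to 26709 ± 736 on SMARCB1 regions and from 28096 ± 7906 to 16185 ± 3262 off them (SD, n = 3 each). The part of these numbers in the distances was not tested. The pattern was not particular to the members. Among wide regions without BRD9, those with an on-region peak within 5 kb went from 7.497 ± 1.65% to 20.6 ± 0.508%. Those with an off-region peak went from 3.67 ± 0.647% to 1.73 ± 0.258% (SD, n = 3 each).

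**Figure D4:**
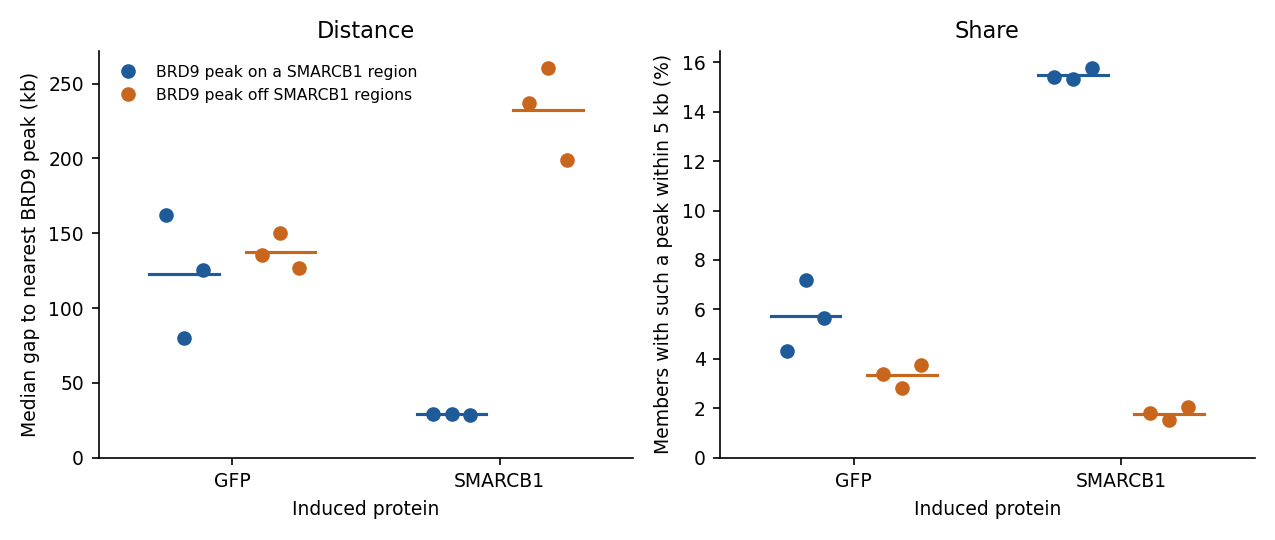
Left, median gap in kb from members to the nearest BRD9 peak that overlaps a SMARCB1 region held by both replicates or lies off all such regions. Right, percentage of members with such a peak within 5 kb. Each point is a BRD9 list, 3 per induced protein, and bars are means. On-region peaks lie nearer and off-region peaks farther in SMARCB1-induced cells, with no overlap between groups.

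Members were spread over all chromosomes. They numbered between 0.640 per Mb on chromosome Y and 15.3 per Mb on chromosome 17, taking the largest peak end in the lists as the span of a chromosome. Chromosome X had 304 members, 1.96 per Mb, and chromosome 21 had 207, 4.30 per Mb. Chromosome 1 had the most by number, 2849.

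Chromosome 19 stood out for narrow regions that did carry BRD9, not for members. It had 10.5 members per Mb, within the range of the other chromosomes, but 8.25 narrow regions with BRD9 per Mb, against at most 3.24 elsewhere. Only 619 of its 1107 narrow regions (55.9%, 95% Wilson interval 53.0 to 58.8%) lacked BRD9, compared with 84.5% on all other chromosomes. The next lowest shares were 61.3% on chromosome Y, with 62 narrow regions, and 71.9% on chromosome X. The highest was 88.4% on chromosome 18. Members on chromosome 19 had a nearest BRD9 peak at a median of 5416 bp, the shortest of the chromosomes. Median control density was also higher on chromosome 19 than over all chromosomes. At its narrow regions with BRD9 it was 0.773 and 0.734 RPKM, against 0.558 and 0.538 RPKM. At its members it was 0.576 and 0.558 RPKM, against 0.493 and 0.474 RPKM. Chromosome 16 had 0.777 RPKM at narrow regions with BRD9 in replicate 1, and 80.1% of its narrow regions lacked BRD9. The part of control density in the share of chromosome 19 was not tested.

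BRD9 was called at narrow regions of chromosome 19 in both conditions. The shares holding a peak were 17.6%, 29.6% and 21.3% in GFP-induced cells and 21.2%, 19.6% and 18.5% in SMARCB1-induced cells, groups that overlap (exact permutation test, p = 0.6). Elsewhere they were 2.62%, 5.18% and 3.14%, and 5.94%, 5.02% and 5.395% (exact permutation test, p = 0.2). The difference between these differences had p = 0.2 (exact permutation test). These 3 tests were added after the values were seen, and in each the lists of both conditions overlapped. Outside chromosome 19 the overlap came from GFP replicate 2, at 5.18%. Without GFP replicate 2, which had the highest share, 62.2% of the narrow regions of chromosome 19 lacked BRD9.

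**Figure D5:**
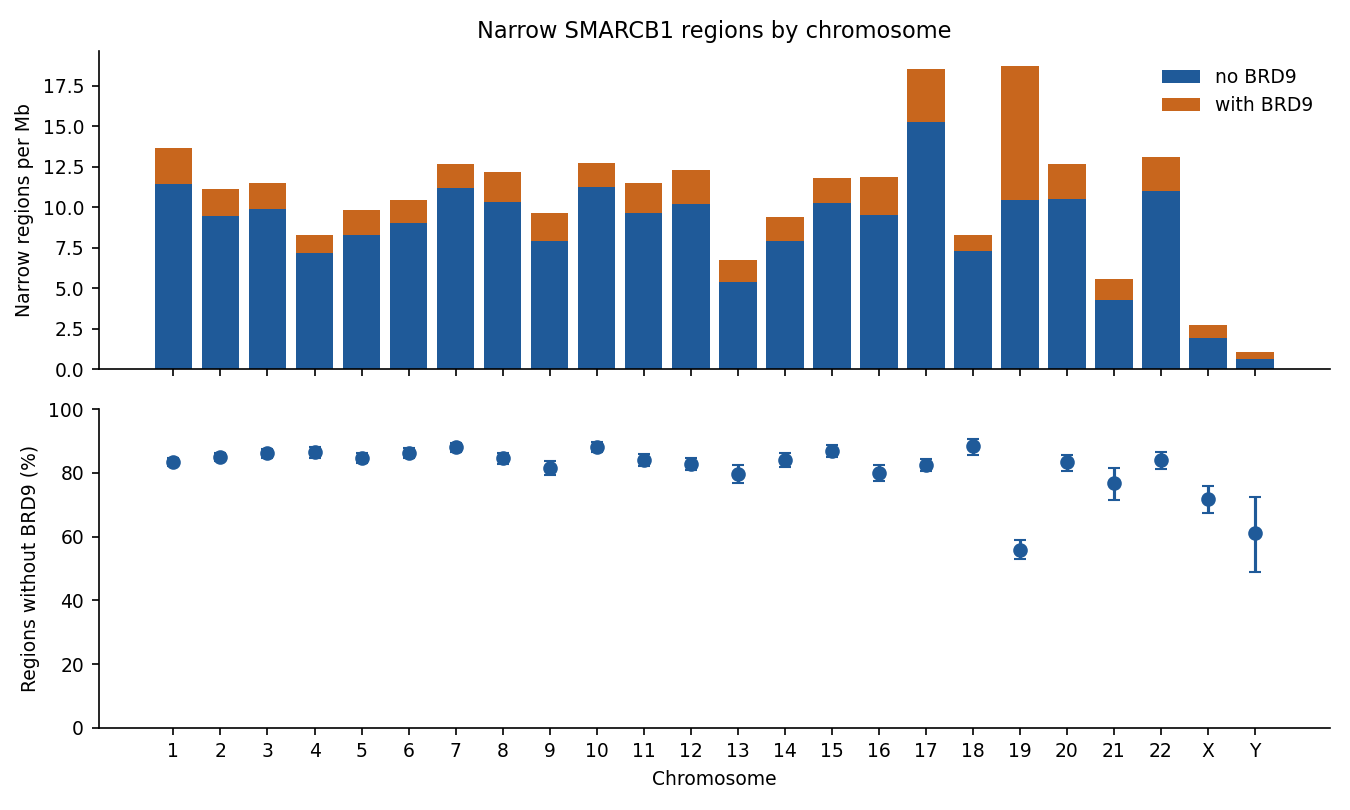
Narrow SMARCB1 regions per Mb of chromosome span, stacked by the presence of BRD9 (top), and the percentage without any BRD9 peak with 95% Wilson intervals (bottom). Chromosome 19 has 10.5 members per Mb and 8.25 narrow regions with BRD9 per Mb, and its share without BRD9 is 55.9%.

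Single members are given with the coordinates of build hg19, SMARCB1 densities of replicates 1 and 2 and control densities over their intervals. Gene annotation of that build was not used here, so no gene is named for them. Ranked by the authors' score and averaged over both lists, the first was on chromosome 17 from 2715151 to 2716076. It had 2.54 and 2.61 RPKM, with 139 and 144 reads, against control densities of 0.236 and 0.283 RPKM, and the next SMARCB1 region was 25050 bp away. The nearest BRD9 peak was 31446 bp away. This region was also the second densest of the members with a control density below their median of 0.486 RPKM.

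The next by rank was on chromosome 4 from 48911326 to 48912301, with 2.36 and 2.89 RPKM against control densities of 0.488 and 0.509 RPKM. The third was on chromosome 22 from 44263351 to 44264226, with 2.08 and 2.61 RPKM, and the nearest BRD9 peak was 201949 bp away. The fourth, on chromosome 16 from 10414701 to 10415173, was less alike between replicates, with 3.50 and 2.29 RPKM, and its control densities were 1.32 and 1.38 RPKM. The fifth, on chromosome 6 from 158956676 to 158957526, had 2.02 and 2.01 RPKM and a SMARCB1 region 125 bp away. These 5 exceeded the upper quartile of the members in both replicates.

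Among members with a low control density, the densest was on chromosome 22 from 18720301 to 18720701, with 3.64 and 3.31 RPKM. It lay 75 bp from another SMARCB1 region and 340 bp from a BRD9 peak, and its scores were 4.18 and 5.13, below the member medians of 6.15 and 7.49. The regions of chromosome 17 and of chromosome 22 from 44263351 named above also belonged to this set. The remaining ones were on chromosome 6 from 69942576 to 69943426, with 2.06 and 2.62 RPKM and no BRD9 peak within 562925 bp, and on chromosome 5 from 78277001 to 78277701, with 2.08 and 2.56 RPKM. The latter was 2177 bp from a BRD9 region shared by all 3 lists made with SMARCB1 and 620825 bp from the closest shared by all 3 made with GFP.

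Of the 5 most isolated members, 3 were on chromosome X. The first, from 77524476 to 77525101, was 2495450 bp from any other SMARCB1 region, with 1.35 and 1.42 RPKM. The second, from 27421226 to 27422076, was 2420275 bp away and had 1.43 and 1.54 RPKM, and the fourth, from 63425401 to 63426376, was 1499175 bp away with 1.28 and 1.48 RPKM. The third was on chromosome 3 from 79135501 to 79136102, 2215074 bp away, with 1.83 and 1.68 RPKM. The fifth, on chromosome 16 from 6829776 to 6830176, was 1248675 bp away, with 1.56 and 1.65 RPKM, and yet had a BRD9 peak 425 bp away. Control densities in the 5 ran from 0.613 to 1.03 RPKM, all above the medians of the members.

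The members nearest to firmly called BRD9 lay beside a BRD9 region held by 3 of 3 lists of a condition. On chromosome 7 the member from 64499326 to 64499851, with 1.40 and 1.39 RPKM, adjoined such a region of SMARCB1-induced cells at 0 bp, while that of GFP-induced cells was 31915 bp away. On chromosome 17 the member from 73774076 to 73775051 was 50 bp from a region of SMARCB1-induced cells and 375 bp from one of GFP-induced cells. On chromosome 19 the member from 42375651 to 42376226 was 70 bp from a region of GFP-induced cells and 241246 bp from one of SMARCB1-induced cells. The others were on chromosome 3 from 156829226 to 156829726 and on chromosome 9 from 82014476 to 82015001, at 129 and 153 bp from regions of SMARCB1-induced cells. In 4 of these 5 the adjoining BRD9 region was nearest in SMARCB1-induced cells. The 5 were picked by this gap, and gains were more frequent than losses in general. Within 1 kb a BRD9 peak was gained at 0.530% of members and lost at 0.0397%. Over all SMARCB1 regions these shares were 7.76% and 0.436%.

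The values on either side of the limits of the rule were as follows. At the upper width limit 15 members of 990 to 997 bp had medians of 1.63 and 1.72 RPKM. The 927 regions without BRD9 from 1000 bp to just above had 1.35 and 1.36 RPKM. These 15 are few and do not stand for the regions below the limit. All 3996 members from 900 to under 1000 bp had 1.35 and 1.38 RPKM, near the values just above it. At the limit of overlap, 92 members had a BRD9 peak at 0 to 100 bp, with medians of 1.41 and 1.38 RPKM, and the 3172 narrow regions with BRD9 in 1 list had 1.44 and 1.48 RPKM. A further 24994 narrow regions of replicate 1 and 63498 of replicate 2 were held by a single replicate and were not counted.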

How the data were processed

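Each deposited file is the peak list of 1 sample, so the authors called peaks per sample. Of 10 samples, 8 had a list used here. The other 2, SMARCB1 in GFP-induced cells and IgG in SMARCB1-induced cells, had no list used. Whether the former gave the control reads of the SMARCB1 lists was not established here. Per the file headers, the authors give raw read counts for sample and control, RPKM, log2 fold values, −log10 of p-values and of the false discovery rate (the score used here for ranks), a strand ratio and another value, the read threshold. The log2, strand ratio and threshold columns of the authors were not used. The submitters' processing notes name BWA 0.7.12-r1039 and hg19; the peak caller is not given in the sources used here. The BRD9 lists name no build and were taken as hg19. Width is end minus start, the length for which the deposited counts and RPKM match.

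Density of a region was the summed counts over summed peak length and library size. The test between BRD9 lists was an exact permutation test (two-sided), adjusted by the Benjamini-Hochberg method. Wilson intervals cover counting error only. The rule for named regions took 5 each by mean score rank, by density at low control density, by distance to the next SMARCB1 region, and by the gap to BRD9 called in 3 of 3 lists, leaving out chromosome 8. Members, lists and tests were chosen with earlier results of these data known. Code was tested on simulated intervals. No hg19 genome was used, so no sequence, motif or gene annotation is given. Replicate numbers are shared between the BRD9 groups. Unpaired tests were used, with the replicate block as an alternative. Deviations from the group means correlated weakly within a number over narrow regions (0.012, 0.022 and 0.024). That correlation is over calls at single regions and does not measure an effect shared by the list values tested. Alternatives were stricter scores, other widths, windows and merging, equal peak numbers, other meanings of absence, and leaving out each list. Python 3.11.15, numpy 2.4.6, pandas 2.3.3, scipy 1.17.1 and matplotlib 3.10.9 were used.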

Additional observations from a re-analysis of the deposited data

How the results depend on the processing

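Over 167 recomputed values, 116 were labelled as held, 47 moved beyond their spread (counts, beyond 1.5 times, and shares without BRD9, beyond the Wilson interval) and 4 reversed. The 4 results with adjusted permutation tests were labelled as held wherever their sign was kept, whatever their size. For members with a BRD9 peak within a window, 1.12 points at 1 kb and 18.7 points at 20 kb counted as held against 8.39. Taking replicates as a block left values unchanged and also counted as held. The number held therefore overstates stability. The smallest p for 3 lists against 3 is 0.1, so p-values say nothing of stability here. The causes of the moves were not tested.

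The number of members was 8310 with lists limited to their upper scores, 4281 with a limit of 500 bp and 47488 with 2000 bp, and from 27912 to 97142 when a list was left out, with 97142 without SMARCB1 replicate 1 and 78458 without SMARCB1 replicate 2, since regions then needed a single list. The share without BRD9 was 84.5%, 90.8% and 74.4% in those 3 settings, 77.3% with no BRD9 peak within 1 kb, 85.7% with equal numbers of top BRD9 peaks, 91.5% for absence in GFP-induced lists, 88.4% for absence in SMARCB1-induced lists, and 84.1 to 89.6% without a list. The log2 density ratio was -0.13, -0.050 and -0.16 in the first 3 settings, -0.059 with no BRD9 within 1 kb and -0.12 for absence in GFP-induced lists. The log2 sample-to-control ratio was 0.26 with upper scores and 0.25 at 500 bp, reversed to -0.039 at 2000 bp, and ran from 0.041 to 0.14 without a list. The log2 ratio of gaps to the next region was -0.18 with upper scores, -0.33 at 500 bp, -0.14 with merging within 500 bp and -0.45 for absence in SMARCB1-induced lists, and ran from -0.37 to -0.010 without a list. It reversed to 0.86 with no BRD9 within 1 kb and to 0.10 for absence in GFP-induced lists. The share of narrow regions holding BRD9 reversed at 500 bp, to -0.643 points. Its difference was 6.27 points at 2000 bp and 2.61 with a peak within 1 kb counted as held, and 0.644 to 2.49 without a list. The change in members minus wide regions was -0.191 points within 1 kb. Nearby gained and lost peaks numbered 147 and 11 within 1 kb, and 3317 and 195 within 20 kb. The share of chromosome 19 narrow regions without BRD9 ran from 57.1 to 67.4% without a list, an alternative added after seeing the data.

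Distance to BRD9 stayed shorter in SMARCB1-induced cells in every alternative run, from -1.48 to -1.07 (log2), and from -1.48 to -1.20 without a list. Taking the replicate number as a block, an exact permutation of signs over 3 pairs gave p = 0.25, the smallest possible, for the differences of -1.34 (log2), 8.39 points and -2.99 points, and p = 0.5 for 1.64 points. Not run, for want of an hg19 genome here, were sequence and annotation. BRD9 depth limits what absence means.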

Other observations

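Members were spread unevenly along the genome, with no expected number set beside the counts given here. Of 3049 windows of 1 Mb on chromosomes 1 to 22 and X, 621 held none, the median window held 6, with quartiles of 1 and 15, and 112 held 30 or more. Leaving out chromosome 8, the fullest window was on chromosome 11 from 9000001 to 10000000, with 47 members and 5 narrow regions with BRD9. Next came chromosome 11 from 46000001 to 47000000 with 45 members and chromosome 20 from 48000001 to 49000000 with 43. Control density in these 3 windows, a median of 0.447, 0.444 and 0.512 RPKM at the members, was close to the 0.486 RPKM over all members. These windows were chosen after their values were seen.

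The densities of members also differed between chromosomes. On chromosome 8 the median SMARCB1 density was 1.52 and 1.44 RPKM and the control density 0.692 and 0.660 RPKM, over the intervals of replicates 1 and 2. On chromosome X they were 1.35 and 1.34 RPKM and 0.253 and 0.230 RPKM. Control density thus differed more between chromosomes 8 and X than SMARCB1 density did, and the cause was not tested. SMARCB1 density at members is bounded from below by the peak calls and control density is not, which limits this comparison.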
